A study of Arabidopsis thaliana with 6 samples.

Results

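The plant's own WRKY genes WRKY6, WRKY20, WRKY22, WRKY42 and WRKY53, were followed in Arabidopsis seedlings that also expressed a foreign member of the same family, PaWRKY1. The genes were taken by name from the array's annotation, each from a probe set assigned to that gene alone. They are 5 of the 22746 probe sets tested and 5 of the 6 WRKY genes that could be matched by symbol. The other one, WRKY47, was not among the genes chosen.

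The series compared 3 arrays of 35S-PaWRKY1 plants with 3 arrays of control plants that carried the empty vector pCAMBIA 1302. In the first group PaWRKY1 is driven by 35S, a promoter of the cauliflower mosaic virus that is active in most plant tissues. All plants were seedlings, harvested with shoot and root at an age of 7 days on MS medium of full strength, from seed vernalized for 2 days. The labels call the arrays of a group biological replicates and do not say whether they came from separate transgenic lines, pools or sowings, so the p-values measure only the spread between these arrays.

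WRKY proteins are plant transcription factors that bind the W-box, a short promoter element, through a conserved domain with the WRKY peptide and a zinc finger. Many WRKY genes are themselves switched on within minutes to hours of pathogen contact, wounding or other stress, and many have W-boxes in their own promoters, so members can regulate one another. WRKY53 is best known as an early regulator of leaf senescence and defence. WRKY22 acts downstream of mitogen-activated protein kinases in the response to bacterial flagellin and in dark-induced senescence. WRKY6 takes part in senescence, defence and phosphate and boron nutrition, and its close relative WRKY42 in phosphate transport. WRKY20 belongs to the class of WRKY proteins with a pair of WRKY domains.

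By locus tag, 4 of the 5 genes lie on chromosome 4: WRKY20 (AT4G26640, probe set 253983_at), WRKY22 (AT4G01250, 255568_at), WRKY42 (AT4G04450, 255337_at) and WRKY53 (AT4G23810, 254231_at). WRKY6 (AT1G62300, 264746_at) lies on chromosome 1. RefSeq's table of assembly TAIR10.1 gives 7 transcripts for WRKY20, 2 for WRKY42 and 1 for each of the others. A single probe set was available for each gene, so isoforms were not told apart.

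The values, log-scaled by the authors and read as log2, were deposited relative to the average of the 3 empty-vector arrays. A value of 0 is therefore the control mean, and the values give differences between arrays, not expression levels. The base of the logarithm and the direction, a higher value for more transcript, are taken by convention, and a fold is what the difference would be if the base is 2. Levels could not be compared between genes, and the labelled tissue could not be checked from the levels of its markers. In whole seedlings, a change in the share of cells that express a gene and a change per cell cannot be told apart.

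The replicate 3 array of empty vector stood apart from the rest. It was at 40.7 on the first principal component over all probe sets, with 41.7% of the variance. The replicate 3 array of 35S-PaWRKY1, at 12.8, was nearer to empty-vector replicate 2, at -2.7, than to empty-vector replicate 3. The other 4 arrays lay below 0, from -22.4 to -2.7. With both replicate 3 arrays left out, the differences of 35S-PaWRKY1 minus empty vector were 0.81 for WRKY22, 0.03 for WRKY6, -0.11 for WRKY20, -0.17 for WRKY42 and -0.63 for WRKY53. Each was on the same side of control as with all arrays. In limma 0 of 5 genes were called, but so were 0 of all probe sets in that setting, so this count adds nothing about the 5.

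None of the 5 genes passed the test for a difference between 35S-PaWRKY1 and empty-vector seedlings. With limma, which tests each probe set with a spread estimate that borrows from all others, and Benjamini-Hochberg adjustment, 0 of 5 were called at an adjusted p of 0.05, where 0.0308% of all probe sets were called. At an unadjusted p under 0.05 the count was again 0 of 5, against 8.01% of all probe sets. WRKY22 and WRKY6 lay above control, 2 of 5 where 39.5% of all probe sets did, and WRKY53, WRKY42 and WRKY20 lay below it. The median of the 5 differences was -0.13, beside -0.04 over all probe sets. The genes differed from each other in how far the arrays of one group lay apart: WRKY53 and WRKY22 varied widely, while WRKY6, WRKY20 and WRKY42 stayed close to the control mean on all 6 arrays.

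**Figure D1:**
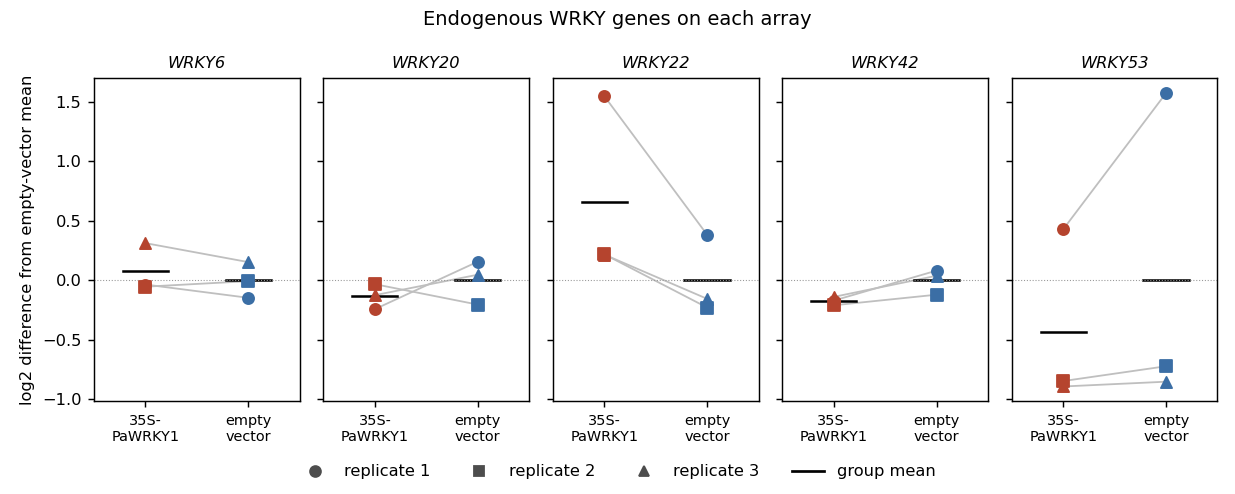
Each panel shows 1 WRKY gene, with the log2 difference from the empty-vector mean on the vertical axis, 35S-PaWRKY1 arrays on the left and empty-vector arrays on the right. Symbols mark the replicate number, grey lines join arrays of the same number and black bars are group means (n = 3 per group). The replicate 1 arrays stand above the others in both groups for WRKY22 and WRKY53, and the other 3 genes lie between -0.24 and 0.31 on every array.

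Among the genes tied to defence signalling, WRKY22 had the largest difference. Its value was 1.55, 0.22 and 0.22 on 35S-PaWRKY1 arrays 1 to 3, against 0.38, -0.23 and -0.16 on empty-vector arrays 1 to 3. The groups overlapped, because empty-vector array 1 lay above 35S-PaWRKY1 arrays 2 and 3. The mean was 0.66 ± 0.77 in 35S-PaWRKY1 and 0 ± 0.33 in empty vector (SD, n = 3 each). The difference of 0.66 log2 units (SE 0.376, 95% interval -0.23 to 1.55, 1.58-fold if log2) had an adjusted p of 0.708 in limma, and an exact two-sided permutation test over the 6 arrays gave p = 0.3, where the smallest possible value is 0.1.

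A large share of this difference rested on a single array. The difference shrank to 0.22 when 35S-PaWRKY1 replicate 1 was left out. Set against the array of the same number, WRKY22 was higher in 35S-PaWRKY1 in all 3 pairs, by 1.16, 0.45 and 0.37 for replicates 1, 2 and 3. It was the single one of the 5 genes to be so, and 12.3% of all probe sets were higher in all 3 pairs. With both replicate 1 arrays left out, an alternative chosen after seeing the data, the difference was 0.41 (SE 0.107), with an adjusted p of 0.629 in limma.

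WRKY53 had the widest spread of the 5 genes. Its value was 0.43, -0.85 and -0.89 on 35S-PaWRKY1 arrays 1 to 3, against 1.57, -0.72 and -0.85 on empty-vector arrays 1 to 3. In each group the replicate 1 array was far above the other 2, which lay close together, and the groups overlapped throughout. The mean was -0.44 ± 0.75 in 35S-PaWRKY1 and 0 ± 1.36 in empty vector (SD, n = 3 each). The difference of -0.44 (SE 0.688, 95% interval -2.07 to 1.20, 0.739-fold if log2) had an adjusted p of 0.907 in limma, and the exact two-sided permutation test gave p = 0.6.

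The size of the WRKY53 difference rested on the replicate 1 arrays. With both left out it was -0.08 (SE 0.114, adjusted p 0.895 in limma). In pairs of the same number WRKY53 was lower in 35S-PaWRKY1 by a difference of -1.14 for replicate 1, -0.12 for replicate 2 and -0.04 for replicate 3. With empty-vector replicate 1 left out and its transgenic counterpart kept, the difference was 0.35. Being lower in all 3 pairs was the case for 2 of the 5 genes, WRKY53 and WRKY42, and for 21.7% of all probe sets. For WRKY53 the replicate 3 pair, at -0.04, was within the offset of the array medians. These were -0.046 in 35S-PaWRKY1 and 0.014 in empty vector for replicate 3. With each array centred on its median that pair would lie above 0. With the replicate number as a block the SE of WRKY53 was 0.227, against 0.688 without it, and the adjusted p was 0.551 in limma.

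WRKY6 and WRKY42, which encode closely related proteins of the same WRKY subgroup, did not lie on the same side of control. WRKY6 was at -0.04, -0.05 and 0.31 on 35S-PaWRKY1 arrays 1 to 3, against -0.15, -0.01 and 0.15 on empty-vector arrays 1 to 3. Replicate 3 was its highest array in both groups, as for 19.0% of all probe sets. The difference was 0.07 (SE 0.134, 95% interval -0.24 to 0.39), with an adjusted p of 0.921 in limma and an exact two-sided permutation p of 0.7. Without 35S-PaWRKY1 replicate 3 it was -0.04.

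WRKY42 was the single gene of the 5 whose groups did not overlap. It was at -0.17, -0.21 and -0.14 on 35S-PaWRKY1 arrays 1 to 3, against 0.08, -0.12 and 0.04 on empty-vector arrays 1 to 3. Groups that do not overlap were found for 14.5% of all probe sets, so 1 of 5 is close to the background. The separation was narrow, at -0.139 on 35S-PaWRKY1 array 3 against -0.120 on empty-vector array 2. The medians of these arrays over all probe sets, -0.046 and 0.008, lay farther apart. With each array centred on its median the WRKY42 groups would overlap. The difference of -0.17 (SE 0.0889, 95% interval -0.38 to 0.04, 0.887-fold if log2) had an adjusted p of 0.678 in limma. The exact two-sided permutation test gave p = 0.1, the smallest value that 3 against 3 arrays allow. In pairs of the same number WRKY42 was at -0.25, -0.09 and -0.18 for replicates 1 to 3.

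WRKY20 was at -0.24, -0.03 and -0.12 on 35S-PaWRKY1 arrays 1 to 3, against 0.16, -0.20 and 0.05 on empty-vector arrays 1 to 3. The groups overlapped, with empty-vector array 2 below 35S-PaWRKY1 arrays 2 and 3. The difference was -0.13 (SE 0.119, 95% interval -0.42 to 0.15), with an adjusted p of 0.829 in limma and an exact two-sided permutation p of 0.3. The pairs of the same number did not share a sign, at -0.40, 0.17 and -0.17 for replicates 1 to 3. With both replicate 1 arrays left out the difference was -0.00018.

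**Figure D2:**
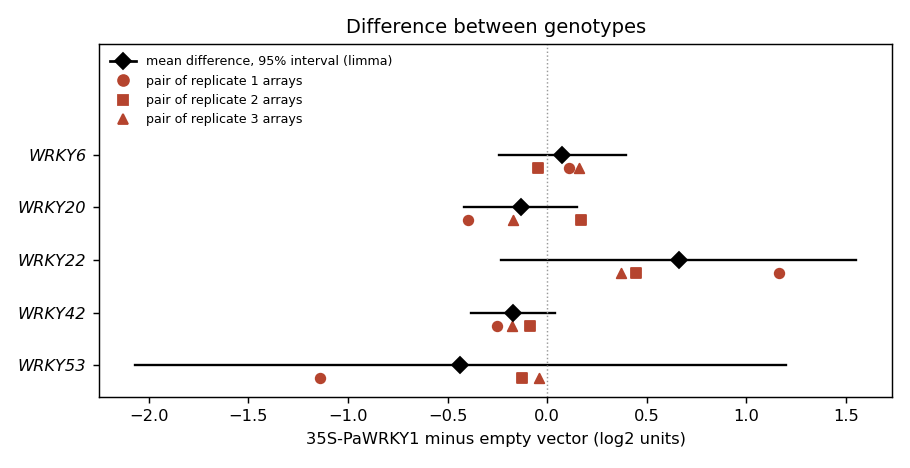
The horizontal axis is the difference of 35S-PaWRKY1 minus empty vector in log2 units. Black diamonds and lines are the limma difference and its 95% interval for each gene (n = 3 per group), and the red symbols under them are the differences within pairs of arrays of the same replicate number. Every interval includes 0, from -0.38 to 0.04 for WRKY42 to -2.07 to 1.20 for WRKY53, and the replicate 1 pair lies apart from the other pairs for WRKY22 and WRKY53.

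The spread between arrays of one group differed widely among the 5 genes. For WRKY53 the SD over 3 arrays was 0.75 in 35S-PaWRKY1, larger than that of 99.0% of all probe sets, and 1.36 in empty vector, larger than that of 99.8%. For WRKY22 it was 0.77 in 35S-PaWRKY1, larger than for 99.0% of probe sets, and 0.33 in empty vector, larger than for 88.3%. WRKY53 was thus among the most variable probe sets in both groups, WRKY22 in the transgenic group.

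The other 3 genes lay closer to the middle of all probe sets. The median SD over all probe sets was 0.12 in 35S-PaWRKY1 and 0.15 in empty vector. WRKY6 had an SD of 0.21 in 35S-PaWRKY1 and 0.15 in empty vector, larger than for 77.5% and 50.9% of probe sets. WRKY20 had an SD of 0.11 in 35S-PaWRKY1 and 0.18 in empty vector, larger than for 43.9% and 62.3%. WRKY42 was the steadiest, with an SD of 0.035 in 35S-PaWRKY1, larger than for 7.82% of probe sets, and of 0.11 in empty vector, larger than for 33.7%.

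**Figure D3:**
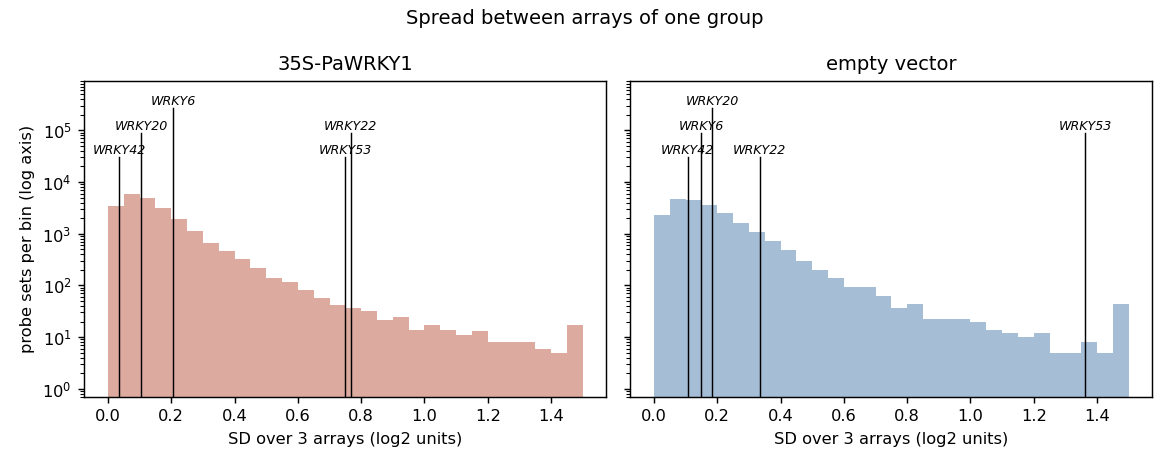
The horizontal axis is the SD over the 3 arrays of a group in log2 units, and bars count all 22746 probe sets per bin on a log axis, 35S-PaWRKY1 on the left and empty vector on the right. The last bin holds every SD of 1.45 or more, and vertical lines mark the 5 WRKY genes. WRKY53 lies far out in the right tail in both groups, at 0.75 in 35S-PaWRKY1 and 1.36 in empty vector.

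The wide spread of WRKY22 and WRKY53 followed the replicate number. Averaged over both genotypes, WRKY22 was at 0.96 on the replicate 1 arrays, against -0.005 on the replicate 2 and 0.03 on the replicate 3 arrays. WRKY53 was at 1.00 on the replicate 1 arrays, against -0.78 and -0.87 on those of replicates 2 and 3. Replicate 1 was the highest array in both groups for 2 of the 5 genes, these 2, and for 11.5% of all probe sets.

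The gap between replicate 1 and the next array was wide for both genes. It was 1.33 in 35S-PaWRKY1 and 0.54 in empty vector for WRKY22, and 1.27 in 35S-PaWRKY1 and 2.29 in empty vector for WRKY53. A gap of at least 0.5 in both groups, a limit chosen after the values were seen, was found for 113 probe sets, or 0.497% of those tested. Of these 113, 51 had a single annotated gene and 6 of those had a symbol beyond the locus tag. Those 6 were WRKY53, WRKY22, the tetraspanin gene TET8, the pectin methylesterase gene ATPMEPCRB, the salt-induced gene SIS and AR781. None of the 113 was called between genotypes in limma at an adjusted p under 0.05, where 0.0308% of all probe sets were. The gap by which they were selected widens the spread within groups, so this count says little about the genotypes. The labels do not say what arrays of one number share.

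Across the 6 arrays the members themselves showed no common course. Pearson's r between pairs of the 5 genes ran from -0.66 for WRKY6 with WRKY53 to 0.77 for WRKY20 with WRKY42, over 10 pairs. WRKY22 and WRKY53, both high on replicate 1, had r = 0.50 (Spearman's rho 0.54), since WRKY22 was higher on the 35S-PaWRKY1 array and WRKY53 on the empty-vector array of that number. The genes share the same 6 arrays and the centring on the controls, so these coefficients only describe the values.

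Genes with a course like that of each WRKY gene were sought among named probe sets whose SD over the 6 arrays was at least 0.5 times that of the WRKY gene, and the 3 with the highest Pearson's r were taken. The number of candidates ran from 97 for WRKY53 to 1522 for WRKY42, and with 6 arrays high coefficients arise easily among so many. WRKY53 was most like STZ (r = 0.922), which encodes a stress-induced zinc finger repressor, TET8 (r = 0.902) and AR781 (r = 0.898). STZ was at -0.57, -1.48 and -0.88 on 35S-PaWRKY1 arrays 1 to 3, against 2.05, -0.72 and -1.33 on empty-vector arrays 1 to 3. Like WRKY53, STZ was highest on replicate 1 in each group and higher on that empty-vector array than on its transgenic counterpart. STZ was chosen by r over these same arrays, which favours such shared traits. The likeness rested on the replicate 1 arrays: with both left out, r over the remaining 4 arrays was 0.485 for STZ, 0.039 for TET8 and -0.037 for AR781.

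WRKY22 was most like ATPMEPCRB (r = 0.995), PTI1-4 (r = 0.948), a gene for a protein kinase, and TBL38 (r = 0.915), of the trichome birefringence-like family. ATPMEPCRB was at 2.29, 0.39 and 0.16 on 35S-PaWRKY1 arrays 1 to 3, against 0.50, -0.22 and -0.28 on empty-vector arrays 1 to 3. Its highest array was the same as that of WRKY22 and, like WRKY22, it was higher in 35S-PaWRKY1 in each same-numbered pair. The choice by r over these arrays favours both traits, so they are no separate support. Its difference between genotypes, 0.95, had an adjusted p of 0.717 in limma. Without the replicate 1 arrays r was 0.938 for ATPMEPCRB, 0.535 for PTI1-4 and 0.712 for TBL38.

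**Figure D4:**
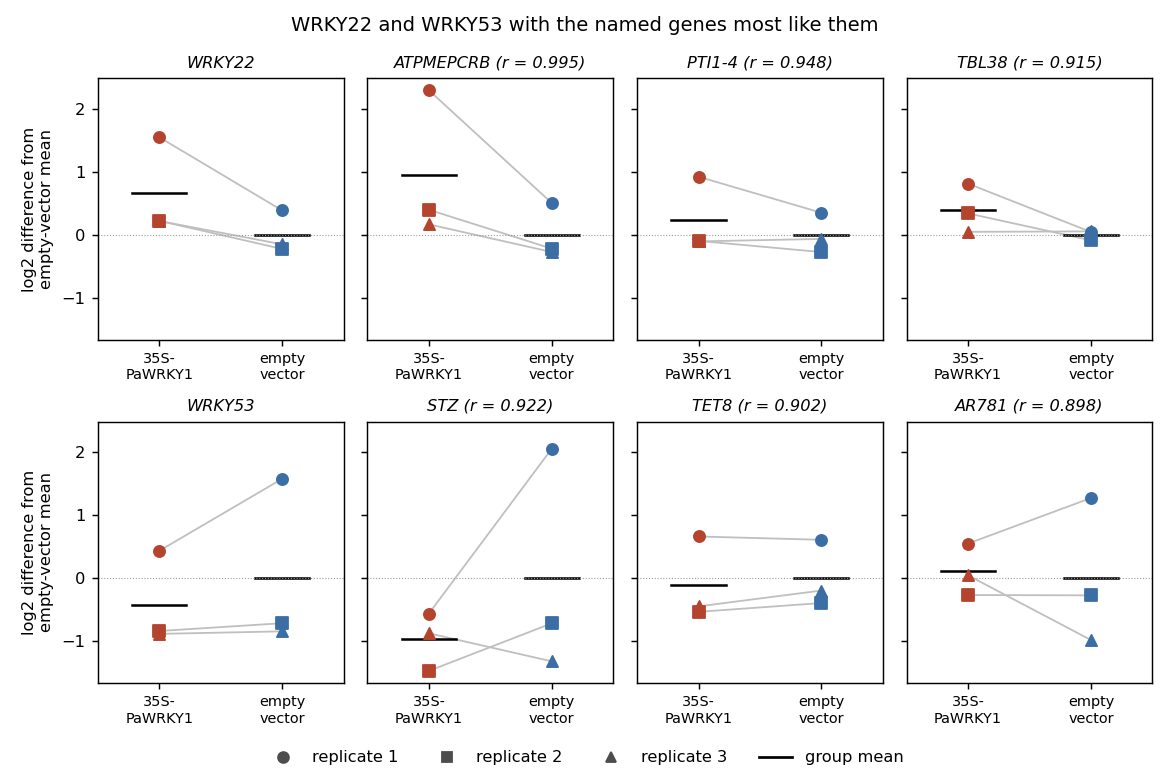
Panels show WRKY22 (top row) and WRKY53 (bottom row) with the 3 named genes whose values over the 6 arrays had the highest Pearson's r with them, as log2 difference from the empty-vector mean, 35S-PaWRKY1 on the left and empty vector on the right. Symbols mark the replicate number, grey lines join arrays of the same number and black bars are group means. In the top row the highest point is 35S-PaWRKY1 replicate 1, and for STZ, as for WRKY53, it is empty-vector replicate 1, at 2.05 and 1.57.

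The steadier genes had other companions. WRKY6 was most like ARV2 (r = 0.993), FAC1 (r = 0.980), which encodes AMP deaminase, and the plastid-encoded photosystem II gene psbE (r = 0.971). All 3 were highest on replicate 3 in both groups, psbE at 1.14 in 35S-PaWRKY1 and 0.74 in empty vector. WRKY20 was most like the transcription factor gene CES (r = 0.973), NET3A (r = 0.925) and QQS (r = 0.921), a gene known for its effect on starch content. Without the replicate 1 arrays r was 0.960 for CES, 0.798 for NET3A and 0.790 for QQS. WRKY42 was most like TBL42 (r = 0.976), UGT72E3 (r = 0.972), whose enzyme glucosylates lignin precursors, and DLAH (r = 0.965). UGT72E3 was at -0.36, -0.44 and -0.43 on 35S-PaWRKY1 arrays 1 to 3, against 0.17, -0.34 and 0.16 on empty-vector arrays 1 to 3. It shared the dip of WRKY42 on empty-vector array 2, and its difference of -0.41 had an adjusted p of 0.554 in limma.

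Few genes around the WRKY factors could be matched to a probe set. Of 78 genes listed as partners, upstream regulators, targets or members of the processes these factors act in, 6 were matched, and 0 of their 7 probe sets passed in either direction. Among 18 partners and upstream regulators the match was EIN3, the transcription factor of ethylene signalling, at a difference of -0.16 (SE 0.108, adjusted p 0.765 in limma). Of 11 reported targets and 13 genes of the abscisic acid response, 0 were matched. A gene that was not matched was not analysed here.

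The matched genes of these processes lay close to control, apart from SAG29. For senescence, in which WRKY53, WRKY22 and WRKY6 act, 2 of 11 genes were matched. The sugar transporter gene SAG29 was at 1.18, 1.14 and 0.40 on 35S-PaWRKY1 arrays 1 to 3, against 0.13, -0.24 and 0.11 on empty-vector arrays 1 to 3, and its difference of 0.91 (SE 0.226) had an adjusted p of 0.400 in limma. Its groups did not overlap, nor did those of EIN3, as for 14.5% of all probe sets. The separation of EIN3 was narrow, at -0.122 on 35S-PaWRKY1 array 1 against -0.109 on empty-vector array 3. With each array centred on its median the EIN3 groups would overlap. EIN3 was at -0.138 on 35S-PaWRKY1 array 3, and the medians of the replicate 3 arrays were -0.046 in 35S-PaWRKY1 and 0.014 in empty vector. The high arrays of SAG29 were replicates 1 and 2 of 35S-PaWRKY1, unlike those of WRKY53. SAG101, which encodes a partner of the immune regulator EDS1, was at 0.13 (SE 0.0993, adjusted p 0.801).

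For the response to microbial patterns, in which WRKY22 acts, 2 of 13 genes were matched, and both lay slightly below control. The receptor-like cytoplasmic kinase gene BIK1 was at -0.16 (SE 0.104) and the receptor gene EFR at -0.09 (SE 0.128). Their adjusted p in limma was 0.762 and 0.889. For phosphate starvation, in which WRKY6 and WRKY42 act, 1 of 12 genes was matched. It was SIZ1, for a SUMO ligase, whose probe sets 247629_at and 247630_at were at -0.18 (SE 0.320) and -0.10 (SE 0.174).

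Markers of shoot and root were read beside these values, since the seedlings held both. The mean of 5 matched shoot markers, of 12 listed, ran from 0.01 to 0.05 on 35S-PaWRKY1 arrays and from -0.03 to 0.03 on empty-vector arrays. The mean of 3 matched root markers, of 16 listed, ran from -0.37 to -0.04 on 35S-PaWRKY1 arrays and from -0.22 to 0.14 on empty-vector arrays. The root markers were the root hair genes XTH26, EXPA7 and EXPA18. XTH26 was at -0.35, -0.38 and -0.45 on 35S-PaWRKY1 arrays 1 to 3, against -0.26, 0.09 and 0.17 on empty-vector arrays 1 to 3. Its groups did not overlap, nor did those of the shoot marker PSAE-1, as for 14.5% of all probe sets. The difference of XTH26 was -0.39 (SE 0.126, 95% interval -0.69 to -0.09), with an adjusted p of 0.505 in limma. EXPA7 and EXPA18 differed by -0.04 and -0.13, and the 5 shoot markers by -0.07 to 0.09. None of these 8 genes passed in limma. On both replicate 1 arrays, where WRKY22 and WRKY53 were high, the root marker mean was -0.14 in 35S-PaWRKY1 and -0.22 in empty vector. The shoot marker mean was 0.01 and 0.03 in the same order. The root markers did not always share the sign of their mean. On 35S-PaWRKY1 replicate 1 EXPA7 was at 0.08, against -0.35 for XTH26 and -0.17 for EXPA18. On 35S-PaWRKY1 replicate 2 EXPA7 was at 0.10 and EXPA18 at 0.16, against -0.38 for XTH26. On empty-vector replicate 1 XTH26, EXPA7 and EXPA18 were at -0.26, -0.15 and -0.25. The lowest root marker mean, -0.37, was on 35S-PaWRKY1 replicate 3, where WRKY22 was at 0.22 and WRKY53 at -0.89. The part of the markers in the values of the WRKY genes was not tested.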

How the data were processed

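Biotin-labelled RNA of seedlings was hybridised to 6 Affymetrix arrays, per the labels' protocols. The deposited log2 values are centred on the control mean of each probe set (tested on the file: the largest absolute control mean is 1.27e-06). MAS5 and RMA appear, without version or role, per the submitters' processing notes. How the arrays were normalized to each other, the log base and the direction were not given in the sources used here. Array medians ran from -0.046 to 0.014 and array SDs over all probe sets from 0.165 to 0.286. No further normalization was applied in the main fit. The count of probe sets called depended on this choice, at 7 in the main fit and 0 after equal quantiles.

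Of 22810 probe sets, 64 controls were left out. Of the 22746 tested, 13513 had 1 gene in GEO's platform annotation, 503 several and 8730 none given; symbols were updated through RefSeq's TAIR10.1 table. Differences were tested two-sided in limma 3.58.1 (R 4.3.3, lmFit, eBayes), and p-values were adjusted after Benjamini and Hochberg across all tested probe sets. SE and intervals come from the limma fit. Precision is limited by the number of arrays, 3 per group. Deviations from group means of same-numbered arrays correlated by 0.314, 0.194 and 0.453 for replicates 1 to 3. All exceed 0.1, and on that ground pairs and a block by number were shown. Arrays of unlike number were not correlated, and deviations within a group sum to 0, so the values are not independent. They do not establish a pairing, and the labels give none. Members and gene lists were chosen with earlier results of these data known. Genes named were all 5 WRKY genes, every matched list gene, the 3 genes most like each member (SD ratio of at least 0.5), the symbols with a replicate 1 gap and WRKY47 by name. Figures used matplotlib 3.10.9 in Python 3.11.15.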

Additional observations from a re-analysis of the deposited data

How the results depend on the processing

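None of the 5 WRKY genes passed at an adjusted p under 0.05 in limma under any of the 14 alternatives run; the lowest adjusted p was 0.306, for WRKY22 with the replicate number as a block (difference 0.66, SE 0.172, unadjusted p 0.00948), and the block changed no call of the 5 genes. Median centring and equal quantiles changed no sign among the 5 mean differences. By the array medians, centring would make the WRKY42 groups overlap and put the replicate 3 pair of WRKY53 above 0. Leaving out single arrays gave -0.0442 to 0.151 for WRKY6, -0.23 to -0.05 for WRKY20, 0.22 to 0.88 for WRKY22, -0.23 to -0.13 for WRKY42 and -0.87 to 0.35 for WRKY53. The sign changed without 35S-PaWRKY1 replicate 3 for WRKY6 (-0.0442) and without empty-vector replicate 1 for WRKY53 (0.35). Median centring moved the SD of WRKY42 within 35S-PaWRKY1 from 0.035 to 0.041. It moved the SD of WRKY53 from 0.749 to 0.742 in 35S-PaWRKY1 and from 1.363 to 1.383 in empty vector. No gene had more than 1 probe set, so averaging probe sets gave no value.

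Over all probe sets the count called in limma was 7 (1821 at an unadjusted p under 0.05) and 6 with the block. It was 11 with array weights, 1 with robust eBayes, 1 at an adjusted p under 0.01, 0 after equal quantiles (1022 unadjusted), 0 without both replicate 3 arrays (1914 unadjusted), 0 without both replicate 1 arrays (1556 unadjusted, chosen after seeing the data) and 0 to 1 without single arrays, 0 being without 35S-PaWRKY1 replicate 2 (1062 unadjusted). The cause was not tested.

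Among 210 alternatives for the 15 probe sets of the lists, 0 passed and 10 changed sign. With single arrays left out, values ran from -0.398 to 0.167 (247629_at) and -0.215 to 0.058 (247630_at) for SIZ1, -0.213 to 0.0156 for EFR, -0.0118 to 0.0448 for RCA and -0.113 to 0.0884 for EXPA7. Without both replicate 3 arrays EXPA7 was at 0.10 and EXPA18 at 0.12. The likeness of AR781 to WRKY53 changed sign without both replicate 1 arrays (r = -0.037).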
